A study of Mus musculus with 4 samples.

Results

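Glycolysis splits glucose into pyruvate in the cytosol, and the citric acid cycle oxidises the acetyl group made from pyruvate inside mitochondria. Many steps can be run by more than 1 enzyme, each from its own gene, and cell types differ in which one they use. In T cells, activation raises glucose uptake and lactate output, while regulatory T cells (Tregs), which carry the transcription factor Foxp3 and restrain immune responses, are known to rely strongly on mitochondrial oxidation.

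The genes described here are 38 genes of glucose uptake, glycolysis, the pyruvate dehydrogenase step and the citric acid cycle, chosen by symbol, out of 24452 genes in the table. All 38 were listed. The table writes symbols in capitals (PKM, LDHA, DLAT, GAPDH), and mouse spelling is used below. They are 2 glucose transporters, 16 glycolytic enzymes counted from hexokinase to lactate dehydrogenase, 5 genes of the pyruvate dehydrogenase complex and its kinase, and 15 enzymes or subunits of the cycle or of reactions beside it. The libraries came from liver Tregs of young Altre-KO mice, which lack the Treg long non-coding RNA Altre (2 libraries), and of young Altre-WT mice (2 libraries). The sources used here do not give strain, sex or the design of the allele. They also leave unsaid whether each library is a different animal, so p-values measure only the spread between these samples, which may be technical. The targeted transcript was not analysed here, and genotypes were taken as labelled. The comparison asks whether loss of Altre changes the transcripts of central carbon metabolism in Tregs of the young liver.

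Levels are in CPM, reads scaled by the authors so that every library has an equal sum. Reads on listed genes, estimated from the values, numbered 3266129 and 2361928 in Altre-KO replicates 1 and 2, against 1828772 and 2378952 in Altre-WT replicates 1 and 2. They made up 32.8% and 21.5% of the Altre-KO libraries and 18.8% and 20.6% of the Altre-WT libraries. Of 6 Treg and T cell markers none was at 0, and their summed level was 2447 to 2607 CPM, of which Ikzf2 alone made 1226 to 1272. Foxp3 itself was at 79.5 and 162 CPM in Altre-KO libraries and at 160.4 and 140.4 CPM in Altre-WT libraries, so Altre-KO replicate 1 stood apart, and its part in the results was not tested beyond leaving it out. That library was also the lowest for Cd3e (53.9 CPM, against 68.5 to 90.8 in the others) and Il2ra (164 CPM, against 190 to 213). It was the lowest for Ikzf2 by little, and not the lowest for Cd4 or Ctla4. Of 11 hepatocyte markers 3 (Alb, Ttr and Fgb) were listed at 0 in every library, and the 11 summed to 2.14 and 6.77 CPM in Altre-KO libraries and to 8.2 and 5.88 CPM in Altre-WT libraries. The 10 myeloid markers, of which the macrophage marker Vsig4 was listed at 0 throughout, summed to 317.5 and 188 CPM in Altre-KO libraries and to 215 and 318 CPM in Altre-WT libraries. The groups overlapped in that sum, and its part in the levels below was not tested. In bulk RNA, fewer cells of a type and less RNA per cell cannot be told apart.

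**Figure D1:**
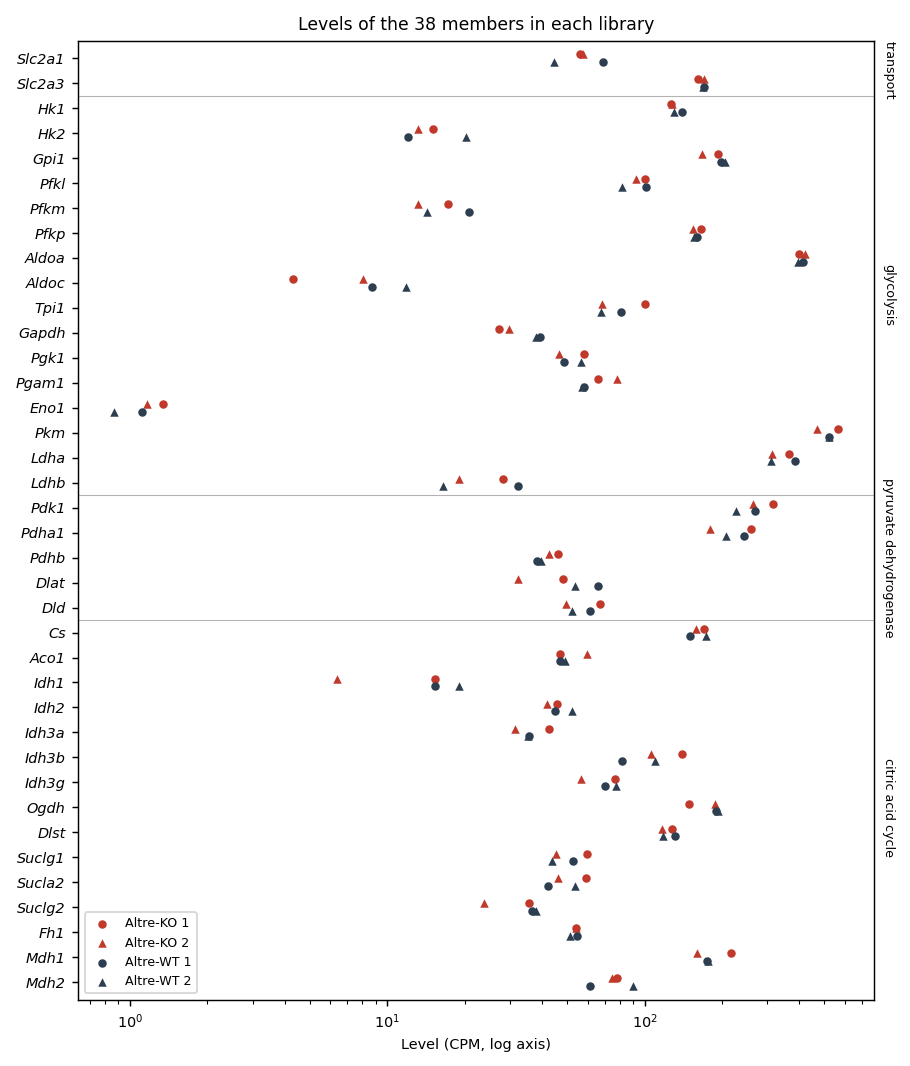
Level of each of the 38 genes in CPM (log axis), with 1 point per library, Altre-KO in red above Altre-WT in dark blue in each row and replicates told apart by shape. Points of the genotypes lie together for most genes, Pkm and Aldoa are the highest in CPM, and Eno1 is the lowest, at 0.87 to 1.34 CPM.

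Levels of different genes were compared per kilobase of annotated exon, since a long transcript gives more reads. On that scale the aldolase gene Aldoa was highest of the genes as listed, with a mean over the 4 libraries of 140 CPM per kilobase. The places of Gapdh and Eno1 are uncertain, because most reads of each pair lay on a near-identical copy, described below. The pyruvate kinase gene Pkm and the lactate dehydrogenase gene Ldha came next with 103.7 CPM per kilobase each. Pkm spanned 93.4 to 113 and Ldha 93.7 to 116 CPM per kilobase, so these 2 neighbours did not differ beyond their spread. The cytosolic malate dehydrogenase gene Mdh1 followed with 70.8 CPM per kilobase and the pyruvate dehydrogenase subunit gene Pdha1 with 59.7. The hexokinase gene Hk2 and the aldolase gene Aldoc were near the bottom with 2.53 and 2.52 CPM per kilobase. Scaling by the main coding transcript in place of all annotated exon put Aldoa at 278, Ldha at 216 and Pkm at 213 CPM per kilobase. These were again the 3 highest as listed.

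The genes varied little among the 4 libraries. The highest library stood a median of 1.36-fold over the lowest in the 37 genes that passed the filter on low values, against 1.46-fold over the 10448 tested genes above 0 in every library. This ratio was smallest for Slc2a3 (1.06) and largest for Idh1 (2.98) and Aldoc (2.74). The backgrounds were not matched for level. Of the members 33 had a mean of at least 20 CPM, as had 7288 genes over the table, beside 10486 tested genes.

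Glucose enters T cells through facilitative transporters of the GLUT family. Slc2a3, which encodes GLUT3, was at 161 and 171 CPM in Altre-KO libraries, against 169.5 and 169.4 CPM in Altre-WT libraries (log2 fold change -0.032, SE 0.16, limma adjusted p = 0.999). Slc2a1, which encodes GLUT1, was at 56.3 and 57.6 CPM in Altre-KO libraries and at 68.9 and 44.6 CPM in Altre-WT libraries. The genotypes overlapped for both genes. Per kilobase, Slc2a3 held 45.9% to 51.5% of the transcripts of 7 transporter genes and Slc2a1 28.0% to 38.5%. Slc2a9, a transporter of urate and hexoses, held 9.70% to 11.8%. Slc2a2, the GLUT2 gene of hepatocytes, was listed at 0 in both Altre-KO libraries and was at 1.64 and 1.68 CPM in Altre-WT libraries, and Slc2a4, the insulin-responsive GLUT4 gene of muscle and fat, was listed at 0 in all 4.

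Hexokinase traps glucose as glucose 6-phosphate. Hk1, the form of most tissues, was at 126 and 127 CPM in Altre-KO libraries, against 140.0 and 130.3 CPM in Altre-WT libraries, and held 72.8% to 83.4% of the hexokinase transcripts per kilobase. Both Altre-KO values lay below both Altre-WT values, but the difference was small (log2 fold change -0.090, SE 0.17, 95% interval -0.45 to 0.27, limma adjusted p = 0.999, and -0.039 without Altre-WT replicate 1 or -0.14 without Altre-WT replicate 2). Hk2, the form induced by activation and low oxygen, was at 15.0 and 13.1 CPM in Altre-KO libraries and at 12.03 and 20.2 CPM in Altre-WT libraries.

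Gpi1, which converts glucose 6-phosphate to fructose 6-phosphate, was at 193 and 167 CPM in Altre-KO libraries and at 197.4 and 205 CPM in Altre-WT libraries, without overlap (log2 fold change -0.16, SE 0.16, 95% interval -0.50 to 0.17, limma adjusted p = 0.999). Its log2 fold change was -0.27 without Altre-KO replicate 1 and -0.059 without Altre-KO replicate 2. Phosphofructokinase, the committed step of glycolysis, was shared by 2 genes. Pfkp, named after platelets, was at 166 and 155 CPM in Altre-KO libraries and at 160 and 155 CPM in Altre-WT libraries. Pfkl, named after liver, was at 100.4 and 92.3 CPM in Altre-KO and at 102 and 81.55 CPM in Altre-WT (log2 fold change 0.079, SE 0.19, limma adjusted p = 0.999). Which of them leads depended on the length used. Pfkl held 45.7% ± 1.56 (SD, n = 4 libraries) of the phosphofructokinase transcripts per kilobase of all annotated exon, where Pfkp has 13401 bases, but 36.3% per kilobase of the main coding transcript, where Pfkp has 4145 bases and held 55.3%. Pfkp and its neighbour Pitrm1 have an exon stretch of 748 identical bases in common, so reads there cannot be told apart without strand. The muscle form Pfkm, at 17.1 and 13.1 CPM in Altre-KO and at 20.8 and 14.3 CPM in Altre-WT, was the lowest on both scales, with 13.4% to 18.6% per kilobase of annotated exon.

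At the aldolase step, Aldoa was at 399.6 and 421 CPM in Altre-KO libraries and at 412 and 393 CPM in Altre-WT libraries, with overlap (log2 fold change 0.027, SE 0.14, limma adjusted p = 0.999). It made up 97.4% to 98.8% of the aldolase transcripts per kilobase. Aldoc, the brain form, was at 4.29 and 8.04 CPM in Altre-KO libraries, against 8.75 and 11.8 CPM in Altre-WT libraries, without overlap (log2 fold change -0.69, SE 0.49, 95% interval -1.71 to 0.33, limma adjusted p = 0.999) and on as few as 14 estimated reads per library. Its log2 fold change was -0.30 without Altre-KO replicate 1 and -1.08 without Altre-KO replicate 2.

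Triosephosphate isomerase (Tpi1) was at 100.4 and 68.2 CPM in Altre-KO libraries and at 80.9 and 67.7 CPM in Altre-WT libraries. The phosphoglycerate kinase gene Pgk1 was at 58.2 and 46.6 CPM in Altre-KO and at 48.7 and 56.8 CPM in Altre-WT. The testis forms Gapdhs and Pgk2 were listed at 0 in every library, except Pgk2 at 0.55 CPM in Altre-WT replicate 1. Pgam1, a phosphoglycerate mutase, was at 66.1 and 77.9 CPM in Altre-KO libraries, against 58.0 and 57.2 CPM in Altre-WT libraries. Both Altre-KO values were above both Altre-WT values, with a log2 fold change of 0.31 (SE 0.21, 95% interval -0.12 to 0.75, limma adjusted p = 0.999, and 0.20 without Altre-KO replicate 2). It held 91.8% to 95.8% of the mutase transcripts per kilobase, and the muscle form Pgam2 the rest.

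Pyruvate kinase makes pyruvate and ATP. Pkm was at 566 and 467 CPM in Altre-KO libraries and at 523 and 519 CPM in Altre-WT libraries, so the Altre-KO values lay on either side (log2 fold change -0.020, SE 0.15, limma adjusted p = 0.999). It held all pyruvate kinase transcripts in 3 libraries and 99.5% in Altre-WT replicate 1, where Pklr, the liver and red cell form, was at 1.64 CPM. The M1 and M2 splice forms of Pkm are not separated in these gene-level values.

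Lactate dehydrogenase turns pyruvate into lactate and back. Ldha, the subunit that predominates in glycolytic tissue, was at 365 and 312 CPM in Altre-KO libraries and at 384 and 310.2 CPM in Altre-WT libraries (log2 fold change -0.032, SE 0.16, 95% interval -0.36 to 0.29, limma adjusted p = 0.999). Ldhb, the subunit that predominates in heart, was at 28.2 and 19.1 CPM in Altre-KO and at 32.3 and 16.4 CPM in Altre-WT. Replicate 1 was the higher library in both genotypes for Ldha and for Ldhb. Per kilobase, Ldha held 85.0% to 89.98% of the lactate dehydrogenase transcripts, and the testis form Ldhc was listed at 0.

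The start regions of Ldha and Ldhb are shown because these genes share a step that Ldha leads. Each is the 250 bases before the RefSeq start listed first for the gene, 5′ to 3′ on the gene's strand (GRCm38.p6). RefSeq lists 2 starts for Ldha, of which the other is not shown, and 1 for Ldhb. Capitals mark ACGTG on either strand (CACGT on the strand printed). These letters are a form of the core of hypoxia response elements and also lie within the E-box CACGTG. Other forms of that core, such as GCGTG, were not counted or marked. Ldha is at chr7:46845554-46845803 on the plus strand and Ldhb at chr6:142507958-142508207 on the minus strand.
Ldha: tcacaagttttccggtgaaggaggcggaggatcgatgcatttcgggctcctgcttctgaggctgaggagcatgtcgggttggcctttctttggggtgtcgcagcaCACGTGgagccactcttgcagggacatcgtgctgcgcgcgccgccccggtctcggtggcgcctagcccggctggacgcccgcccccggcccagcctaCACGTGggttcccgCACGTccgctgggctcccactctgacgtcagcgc
Ldhb: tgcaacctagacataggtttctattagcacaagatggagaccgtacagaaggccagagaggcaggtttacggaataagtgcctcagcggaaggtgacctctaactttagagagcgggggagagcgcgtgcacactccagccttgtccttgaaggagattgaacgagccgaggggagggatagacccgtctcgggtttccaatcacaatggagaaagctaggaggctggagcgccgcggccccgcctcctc

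Ldha had 5 matches to ACGTG, 4 of them from 2 copies of CACGTG, which reads as a match on each strand. Ldhb had 0 matches to ACGTG in this window, but its printed sequence holds GCGTG, another form of the core. A RefSeq start was found for 36 of the 38 genes. At the start listed first, 10 of these 36 (27.8%) held at least 1 match, against 16.6% of 27025 genes with a start in the RefSeq table. At that start only Ldha among the 36 had 3 or more matches, as did 1.28% of all genes. Over all listed starts, 19 of 54 (35.2%) held a match, against 16.6% of 32851. These backgrounds were not matched for base composition or level, and no difference from them was tested. The matches are letters in a window and show no bound factor. Hif1a, which encodes the oxygen-regulated factor that binds hypoxia response elements, was at 512 and 529 CPM in Altre-KO libraries and at 465 and 557 CPM in Altre-WT libraries.

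**Figure D2:**
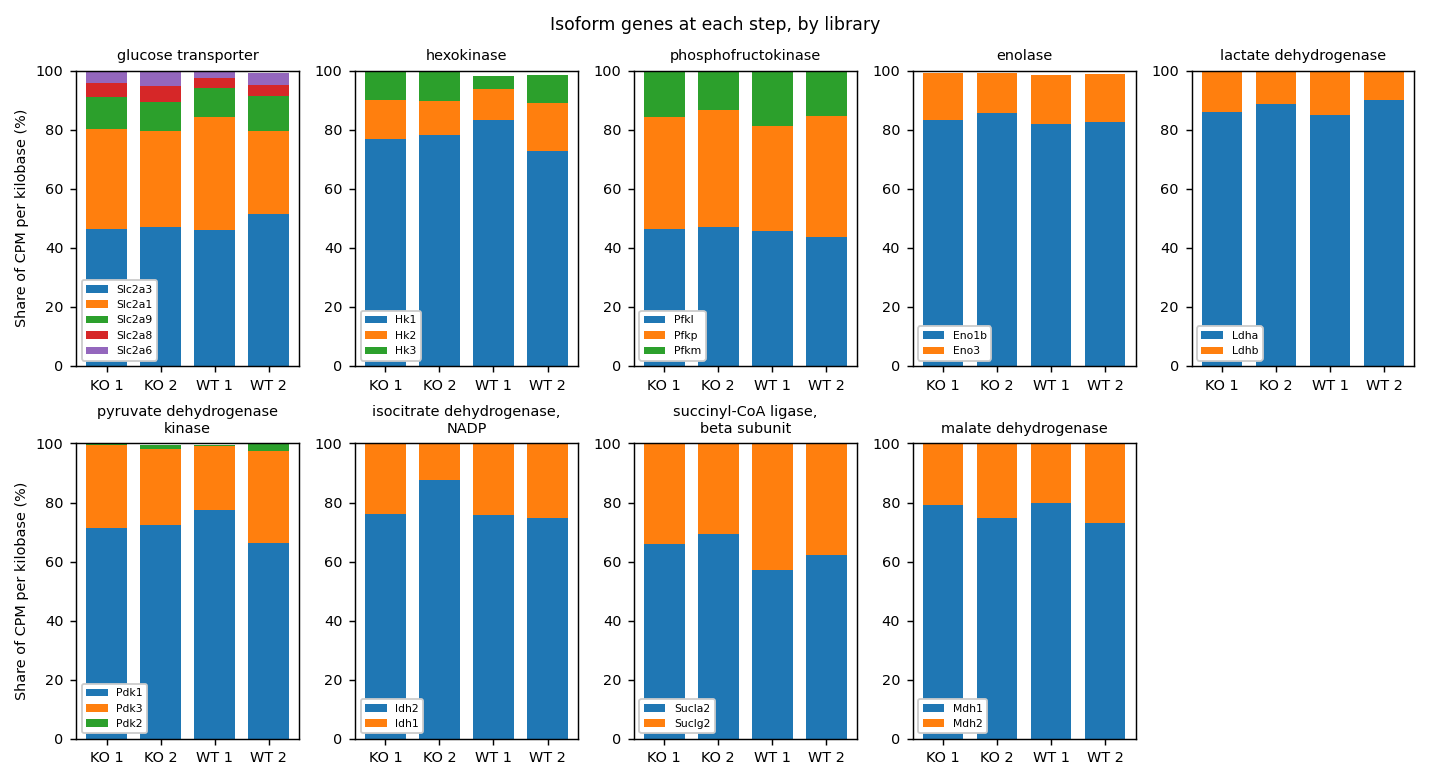
Share of each isoform gene in the CPM per kilobase of annotated exon at 9 steps with more than 1 expressed gene, in percent, with 1 bar per library and Altre-KO left of Altre-WT; genes that stay under 2% in every library are not drawn. Hk1, Ldha, Idh2 and Mdh1 hold most of their step in all 4 libraries, while Pfkl (43.5% to 47.2%) and Pfkp share theirs.

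Gapdh and Eno1, usually among the most abundant messages of a T cell, were low in this table, and a near-identical copy of each was not. Gapdh was at 27.2 and 29.8 CPM in Altre-KO libraries and at 39.4 and 37.9 CPM in Altre-WT libraries. Its processed pseudogene Gm12070 (GRCm38, chr11:26786633-26787634) was at 177.0 and 155 CPM in Altre-KO and at 191 and 195 CPM in Altre-WT, which is 82.9% to 86.7% of the summed reads of both genes. Gm12070 spans the whole Gapdh coding sequence, 1002 bases, and differs from it at 1 base, G453A, counted from 1 at the 5′ end of the Gapdh transcript, where the coding sequence runs from 93 to 1094. The 61 bases around it, positions 423 to 483, are shown to make plain how little separates reads of the pair, with that base in capitals.
Gapdh: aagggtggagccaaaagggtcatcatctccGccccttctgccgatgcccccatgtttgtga
Gm12070: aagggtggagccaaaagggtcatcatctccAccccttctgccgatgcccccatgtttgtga

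Eno1, the enolase of most tissues, was at 1.34 and 1.16 CPM in Altre-KO libraries and at 1.11 and 0.87 CPM in Altre-WT libraries, and it was the only one of the 38 genes below the filter on low values. Eno1b, a retrogene 99.5% identical to Eno1 over 1736 bases, was at 196 and 150.4 CPM in Altre-KO and at 178 and 164 CPM in Altre-WT, or 99.2% to 99.5% of the pair. The estimated reads of Gapdh and Eno1 were fractional, for example 88.9 and 70.3 for Gapdh in the Altre-KO libraries, while those of most genes were whole. How reads shared by both copies were assigned is not stated in the labels, so the value of each copy alone is uncertain and the pairs were also summed. Gapdh with Gm12070 summed to 204 and 185 CPM in Altre-KO libraries, against 230.2 and 233 CPM in Altre-WT libraries. Both Altre-KO sums lay below both Altre-WT sums, with a log2 fold change of -0.25 (SE 0.16, 95% interval -0.58 to 0.07, limma adjusted p = 0.999), against -0.43 (SE 0.27, 95% interval -0.98 to 0.13, limma adjusted p = 0.999) for Gapdh alone. Eno1 with Eno1b summed to 198 and 152 CPM in Altre-KO and to 179 and 165 CPM in Altre-WT, with overlap (log2 fold change 0.011, SE 0.17).

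Eno1b as listed held 81.9% to 85.8% of the enolase transcripts per kilobase and Eno3, the muscle form, 13.3% to 16.6%. The Eno1b share may include reads of Eno1, so it does not show which copy of the pair leads. In all, 15 of the 38 genes have at least 1 other annotated gene with 300 aligned bases at 90% identity or more. Gapdh alone has 177, of which 9 were analysed here, and Ldha has 13, of which the 1 analysed was at 2.73 CPM or less. Besides Gm12070 and Eno1b, the copies analysed were at 9.30 CPM or less, leaving out Pitrm1, which overlaps Pfkp and was at 55.9 to 60.3 CPM.

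**Figure D3:**
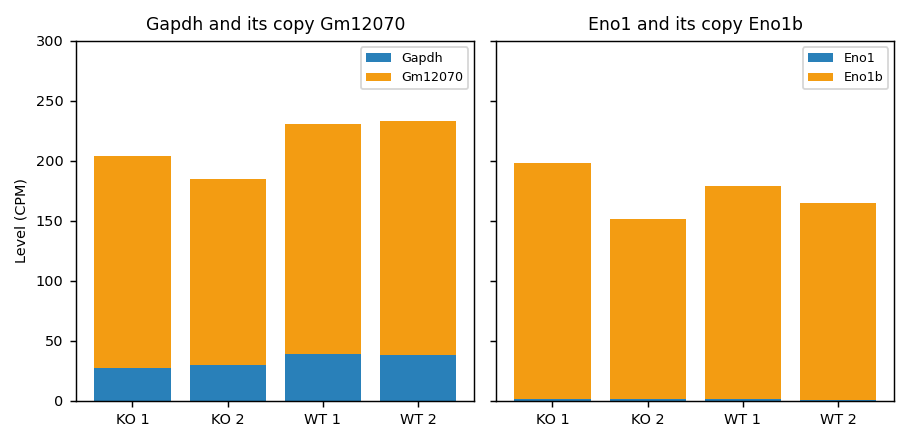
Level in CPM of Gapdh and Gm12070 (left) and of Eno1 and Eno1b (right), stacked, with 1 bar per library and Altre-KO left of Altre-WT. The copy, in orange, takes 82.9% to 86.7% of the Gapdh pair and over 99% of the Eno1 pair in every library.

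The pyruvate dehydrogenase complex turns pyruvate into acetyl-CoA, and its kinases switch it off. Pdk1, a kinase gene induced by hypoxia, was the most abundant of the 4 kinase genes, at 316 and 263 CPM in Altre-KO libraries and at 268 and 226 CPM in Altre-WT libraries. It held 66.4% to 77.6% of the kinase transcripts per kilobase and Pdk3 21.7% to 31.1%. The genotypes overlapped, with a log2 fold change of 0.23 (SE 0.16, 95% interval -0.10 to 0.56, limma adjusted p = 0.999). It was 0.097 without Altre-KO replicate 1, 0.36 without Altre-KO replicate 2, 0.35 without Altre-WT replicate 1 and 0.11 without Altre-WT replicate 2.

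Dlat encodes the acetyl-transferring core of the complex. It was at 48.4 and 32.2 CPM in Altre-KO libraries, against 65.6 and 53.8 CPM in Altre-WT libraries. Both Altre-KO values lay below both Altre-WT values, and Dlat had the smallest p of all members (log2 fold change -0.58, SE 0.25, 95% interval -1.09 to -0.06, unadjusted p = 0.030, limma adjusted p = 0.999), so it did not pass over all genes tested. Its log2 fold change was -0.29 without Altre-KO replicate 2 and -0.86 without Altre-KO replicate 1. Dlat is on chromosome 9 of GRCm38, chr9:50634633-50659780, on the minus strand.

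Among the other subunits of the complex, Pdhb was at 46.2 and 42.3 CPM in Altre-KO libraries and at 38.3 and 39.5 CPM in Altre-WT libraries, above both (log2 fold change 0.18, SE 0.25, limma adjusted p = 0.999). Without Altre-KO replicate 1 this difference was 0.12. Pdha1, which is X-linked, was at 260.0 and 180 CPM in Altre-KO and at 244 and 207 CPM in Altre-WT (log2 fold change -0.058, SE 0.18, limma adjusted p = 0.999). Its log2 fold change was -0.32 without Altre-KO replicate 1 and 0.21 without Altre-KO replicate 2. Dld, the dihydrolipoamide dehydrogenase that this complex shares with oxoglutarate dehydrogenase, was at 67.4 and 49.5 CPM in Altre-KO and at 61.2 and 52.1 CPM in Altre-WT. Pdha1 shares 426 bases of exon with the overlapping gene Map3k15, which was at 8.83 CPM or less. For Pdha1 and Dld the Altre-KO values lay outside the Altre-WT values on both sides, with replicate 1 the higher.

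In the citric acid cycle, citrate synthase (Cs) condenses acetyl-CoA with oxaloacetate and was at 171 and 158 CPM in Altre-KO libraries and at 150.4 and 174 CPM in Altre-WT libraries. Aco1, a cytosolic aconitase that is also an iron regulatory protein, was at 46.8 and 59.7 CPM in Altre-KO and at 47.0 and 49.2 CPM in Altre-WT. Fh1, the fumarase gene, was among the steadiest, at 53.9 and 54.2 CPM in Altre-KO and at 54.7 and 51.3 CPM in Altre-WT.

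Isocitrate dehydrogenase exists as a mitochondrial NAD-dependent enzyme of 3 kinds of subunit and as NADP-dependent enzymes in the cytosol (Idh1) and mitochondria (Idh2). Idh3b, a subunit of the NAD enzyme, was at 139 and 106 CPM in Altre-KO libraries and at 81.5 and 109.7 CPM in Altre-WT libraries (log2 fold change 0.36, SE 0.20, 95% interval -0.05 to 0.77, limma adjusted p = 0.999). Without Altre-KO replicate 1 it was 0.17, without Altre-KO replicate 2 0.55, without Altre-WT replicate 1 0.15 and without Altre-WT replicate 2 0.57. Idh3g was at 76.9 and 56.7 CPM in Altre-KO and at 70.0 and 77.3 CPM in Altre-WT, and the catalytic subunit gene Idh3a at 42.6 and 31.3 CPM in Altre-KO and at 35.5 and 35.3 CPM in Altre-WT. The subunits thus did not move one way, and each overlapped between genotypes. Idh2 was at 45.6 and 41.9 CPM in Altre-KO and at 44.8 and 52.1 CPM in Altre-WT, and held 74.7% to 87.6% of the NADP-dependent transcripts per kilobase. Idh1 was at 15.3 and 6.35 CPM in Altre-KO libraries and at 15.3 and 18.9 CPM in Altre-WT libraries, with 1 low library, Altre-KO replicate 2, at 15 estimated reads (log2 fold change -0.72, SE 0.43, 95% interval -1.61 to 0.17, and -0.14 without that library).

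Oxoglutarate dehydrogenase, the next oxidative step, was represented by Ogdh at 149 and 187 CPM in Altre-KO libraries, against 189 and 192 CPM in Altre-WT libraries, without overlap (log2 fold change -0.19, SE 0.17, 95% interval -0.53 to 0.16, limma adjusted p = 0.999, and -0.025 without Altre-KO replicate 1). Its brain-enriched relative Ogdhl was at 1.27 CPM or less. The acyltransferase gene Dlst was at 127.4 and 116 CPM in Altre-KO and at 132 and 117.7 CPM in Altre-WT.

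Succinyl-CoA ligase pairs the subunit encoded by Suclg1 with an ATP-forming partner (Sucla2) or a GTP-forming one (Suclg2). Suclg1 was at 59.7 and 45.3 CPM in Altre-KO and at 52.5 and 43.7 CPM in Altre-WT. Sucla2 held 57.1% to 69.3% of the partner transcripts per kilobase. Suclg2 was at 35.5 and 23.7 CPM in Altre-KO libraries, against 36.6 and 37.8 CPM in Altre-WT libraries (log2 fold change -0.35, SE 0.28, 95% interval -0.93 to 0.23, limma adjusted p = 0.999, and -0.066 without Altre-KO replicate 2). Sucla2 was at 59.4 and 46.1 CPM in Altre-KO and at 42.1 and 53.8 CPM in Altre-WT. Mdh1 held 73.1% to 79.9% of the malate dehydrogenase transcripts per kilobase, at 216 and 159 CPM in Altre-KO and 175.5 and 176.5 CPM in Altre-WT, ahead of mitochondrial Mdh2, at 78.1 and 74.9 CPM in Altre-KO and 61.2 and 90.4 CPM in Altre-WT.

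Across all 38 genes, none differed between genotypes past the threshold. Of the 37 tested, 0 had a limma adjusted p under 0.05, by limma on log2(CPM + 1) and by limma-voom on estimated reads alike, against a background of 0.0381% (4 of 10486 genes, all lower in Altre-KO). At an unadjusted p under 0.05 there was 1 member, Dlat, against 3.66% of all tested genes. In the authors' deposited table no member had an unadjusted p below 0.233, and each had an adjusted p of 1. The groups did not overlap for 9 of the 37, 2 with both Altre-KO libraries higher and 7 with both lower, against backgrounds of 30.8% in either direction, 14.7% higher and 16.1% lower. The members' shares were 24.3%, 5.41% and 18.9%. The 9 were Pgam1 and Pdhb on the higher side and Dlat, Gapdh, Aldoc, Suclg2, Ogdh, Gpi1 and Hk1 on the lower.

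Log2 fold changes were above 0 for 19 members and below 0 for 18, with a median of 0.0080, beside 47.9% above 0 and a median of -0.013 over all tested genes. Among the 15 glycolytic enzymes tested 6 were above 0 (median -0.020). Among the 15 genes of the cycle or of reactions beside it 9 were (median 0.029). That group includes the cytosolic forms Mdh1, Aco1 and Idh1 and leaves out succinate dehydrogenase. The glycolytic enzymes summed to 2234 and 2019 CPM in Altre-KO libraries, against 2221 and 2078 CPM in Altre-WT libraries. This leaves out the copies Gm12070 and Eno1b. With them the sum was 2607 and 2324 CPM in Altre-KO libraries, against 2589 and 2437 CPM in Altre-WT libraries. The same 15 genes of the cycle or beside it summed to 1317 and 1168 CPM in Altre-KO and to 1188 and 1280.0 CPM in Altre-WT. In each of these sums the spread within a genotype exceeded the difference between genotypes.

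A p that misses the threshold does not show equal levels, so the intervals matter. The 95% interval of the difference lay within a 2-fold change in either direction for 34 of the 37 members and within 1.5-fold for 19. Of the remaining 3, Aldoc and Idh1 are low genes, and Dlat had an interval reaching -1.09. For Aldoa the interval was -0.27 to 0.33 and for Pkm -0.33 to 0.29. These intervals lean on the variance shared over all genes, with 20.8 prior degrees of freedom beside each gene's own 2.

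**Figure D4:**
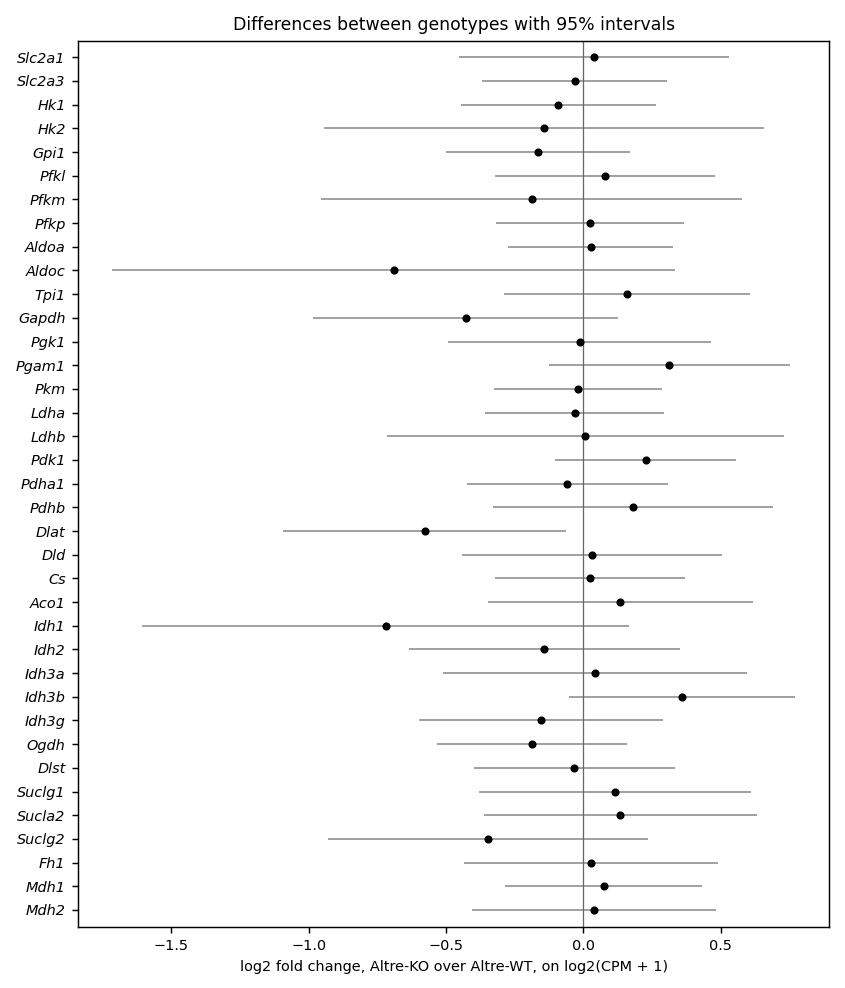
Log2 fold change of the 37 tested genes, Altre-KO over Altre-WT, on the log2(CPM + 1) scale, with 95% intervals from limma, not adjusted for the number of genes. Only the interval of Dlat (-1.09 to -0.06) leaves out 0, and its adjusted p is 0.999.

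The sign of the difference was the same without each library in turn for 13 of the 37 members and changed for 24. Altre-KO replicate 1, which had the largest share of its reads on listed genes, was the highest library for 9 of the 20 pyruvate dehydrogenase and cycle genes, and Altre-KO replicate 2 was the lowest for 10 of them. Over all tested genes the same counts stood at 30.7% and 27.7%. Without Altre-KO replicate 1, 11 members (29.7%) were above 0, beside 46.5% of all tested genes. Their median log2 fold change was -0.12, against a median of -0.025 over all tested genes. Leaving out each library in turn gave 11 to 23 members above 0 and medians of -0.12 to 0.068, so the direction depended on the library left out.

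Other genes of the pathway numbered 82, taken from a list of further isoforms, transporters, regulators, succinate dehydrogenase and shuttle genes. Of these 59 were tested, and 0 passed in either direction, with 27 above 0 and a median log2 fold change of -0.018. The groups did not overlap for 21 of the 59, 11 higher and 10 lower, against the backgrounds of 30.8%, 14.7% and 16.1%. The 2 with an unadjusted p under 0.05, against 3.66% of all tested genes, were Pdpr, a regulatory subunit of the phosphatase that reactivates pyruvate dehydrogenase, and Glud1, the glutamate dehydrogenase that feeds the cycle. Pdpr was at 29.4 and 27.9 CPM in Altre-KO libraries, against 49.2 and 39.5 CPM in Altre-WT libraries (log2 fold change -0.60, SE 0.26, limma adjusted p = 0.999). Glud1 was at 169.6 and 205 CPM in Altre-KO, against 249 and 229 CPM in Altre-WT (log2 fold change -0.36, SE 0.16, limma adjusted p = 0.999), or -0.22 without Altre-KO replicate 1.

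Egln3, an oxygen sensor gene induced by hypoxia, followed on the lower side, at 3.98 and 4.66 CPM in Altre-KO libraries and at 7.66 and 9.67 CPM in Altre-WT libraries. On the higher side the smallest p belonged to the phosphoglucomutase gene Pgm1, at 19.9 and 23.3 CPM in Altre-KO and at 15.9 and 13.45 CPM in Altre-WT, without overlap (log2 fold change 0.53, SE 0.35). Sdhb, of succinate dehydrogenase, was at 122 and 95.7 CPM in Altre-KO and at 96.8 and 83.7 CPM in Altre-WT, and Pdp1, a catalytic subunit of the pyruvate dehydrogenase phosphatase, at 37.97 and 44.9 CPM in Altre-KO and at 39.9 and 24.8 CPM in Altre-WT. All 6 had a limma adjusted p of 0.999. Of the 6 succinate dehydrogenase subunit and assembly genes, 3 were above 0 and 3 below.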

How the data were processed

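The submitters' processing notes name STAR, cutadapt, DESeq2 and build mm10. Roles, versions, the counter and the annotation are not stated there. The authors deposited RPM per library (a name read from the values), with 0.0001 added, and CPM, per the file headers, scaled by the authors to 1 total over listed genes. The authors' deposited table also gives mean CPM per genotype, the log2 of their ratio, a p-value and an adjusted p-value from an unnamed test. The step between RPM values gave estimated reads. Within 0.02 of a read, 93.2% to 93.9% of values up to 200 reads were whole and the rest fractional, so no count test was run. Neither genotype held a library deposited 2 times: chi-square per degree of freedom between replicates was 10.3 in Altre-KO and 3.50 in Altre-WT.

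Genes with at least 10 estimated reads at median depth (4.22 CPM) in 2 libraries, 10486 in all, were tested with limma 3.58.1 (R 4.3.3, variance trend) on log2(CPM + 1), genotype as the only term, Benjamini-Hochberg adjustment over all of them and a threshold of 0.05. Fold changes on this scale understate changes of low genes. The fit was tested on simulated data with the same dispersion in both genotypes, which does not model the unequal chi-square values above. Lengths and positions are from GENCODE M21 (GRCm38) and start regions from RefSeq; subunits of 1 enzyme were not treated as isoforms. Copies were searched with blastn 2.17.0. Figures used matplotlib 3.10.9.

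The members and lists were chosen with earlier results of these data known. Named are the leading isoform of 7 steps, members whose genotypes did not overlap (up to 8 with the smallest p each way) and 3 other pathway genes each way. For enolase the leading isoform is Eno1b as listed, which is not told apart from Eno1. Every other member is given by its values. Alternatives covered scaling, limma-voom, pseudocount, filter, replicate block, leaving out each library and gene length. Markers summed to 26.2 to 45.8 CPM for CD8 T and NK cells (7 of 8 analysed), 33.0 to 39.9 for B cells, 0.62 to 1.68 for neutrophils, 175 to 224 for endothelial and stellate cells, mostly Pecam1, and 4.06 to 11.0 for erythroid cells. The leading isoform of 1 step and a few single genes are not reported here.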

Additional observations from a re-analysis of the deposited data

How the results depend on the processing

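No member and no other pathway gene passed the threshold under any of the 12 alternatives of the fit. The genes past it over the whole table numbered 4, 2 with a pseudocount of 0.1, and 6 to 16 without each library (14 without Altre-KO replicate 2, 16 without Altre-WT replicate 2). Members above 0 numbered 11 to 23 without each library, and their median log2 fold change -0.12 to 0.068. The signs of the 21 named genes held under the other settings in which each was tested; without single libraries they turned for Ldha (-0.19 to 0.12), Pkm (-0.16 to 0.12), Aldoa (-0.011 to 0.065), Eno1b (-0.18 to 0.20), Pfkl (-0.078 to 0.24) and Slc2a3 (-0.073 to 0.0098). With the replicate number as a block, 6 genes passed in all and 0 members. Same-numbered libraries did not deviate together across genes (r = -0.010). Whether they share more than a number, for some genes, was not tested further.

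Isoform shares moved with gene length by construction. With the longest transcript, the share was 86.3% for Hk1, 51.2% for Pfkl, 98.8% for Aldoa, 91.3% for Ldha, 69.5% for Sucla2 and 64.3% for Mdh1. With CPM as deposited it was 63.5% for Slc2a3, 85.7% for Hk1, 34.9% for Pfkl, 97.2% for Pgam1, 93.6% for Ldha, 88.4% for Pdk1 and 70.4% for Mdh1. With the main (APPRIS principal) transcript, chosen after the lengths were seen, it was 57.9% for Slc2a3, 87.8% for Hk1, 36.3% for Pfkl, 81.3% for Eno1b as listed, 92.3% for Ldha, 76.6% for Sucla2 and 62.1% for Mdh1. The leading gene changed only at phosphofructokinase, to Pfkp, with the last 2 of these. Summing near-identical copies was also chosen after the data were seen. At 0.306 to 0.547 CPM per read, differences in the lowest isoforms were not detectable at this depth.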
